A study of Mus musculus with 12 samples.

Results

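The genes described here handle adenosine and other nucleosides at the surface of regulatory T cells (Treg) and inside them. Treg are the CD4 T cells that hold immune responses in check, and they depend on the transcription factor Foxp3. The 10 genes, of 55011 in the deposited count table, were chosen by name for their place in the pathway, with earlier results of these data known. They are Entpd1 and Nt5e, which encode the ectoenzymes CD39 and CD73, the adenosine receptor gene Adora2a, the transporter genes Slc28a2, Slc28a2b and Slc29a1, and the genes of the handling enzymes and their surface partner, Adk, Ada, Pnp and Dpp4. All 10 passed the filter on low counts, as did 13295 genes in all.

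Extracellular ATP and ADP are cut to AMP by CD39, and CD73 cuts AMP to adenosine. Adenosine acts on lymphocytes through the receptor that Adora2a encodes, which raises cyclic AMP, and the making of adenosine by the CD39 and CD73 pair on mouse Treg is a known means of suppression. Its signal ends when transporters carry it into cells, where adenosine kinase returns it to AMP or adenosine deaminase turns it into inosine, which purine nucleoside phosphorylase then breaks down.

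RNA was measured in 12 libraries, 3 in each of 4 groups, from 21-day-old male C57BL/6 mice; each library held 1000 cells sorted as live and positive for TCRβ, CD4, GFP and CD25, and was made by Smart-seq2, which copies polyadenylated RNA and amplifies it, here over 18 cycles. The lung ∆Foxp3 group carried the ∆Foxp3.ires.GFP allele, in which the labels mark Foxp3 as deleted and a green reporter is kept, and the lung WT group carried an intact gene with the same kind of reporter, Foxp3.ires.GFP. The spleen ∆Foxp3 group is labelled ∆Foxp3.EGFP.iCre X R26.YFP, a deleted allele with a fused Cre recombinase crossed to a Rosa26 YFP reporter, and the spleen WT group again Foxp3.ires.GFP. The sorting protocol, in contrast, mentions ∆Foxp3.ires.GFP alone, for spleen and lung alike. This leaves the spleen allele uncertain, and tissue and allele cannot be told apart between the ∆Foxp3 groups. By the labels, spleen ∆Foxp3 also differs from spleen WT in its reporter and Cre. Deletion and allele design therefore cannot be told apart between the spleen groups, nor tissue and allele where genotype differences are compared between tissues. Tissue and handling cannot be told apart in either genotype, because lungs were digested with enzymes and enriched for CD4 cells by magnets while spleens were dissociated mechanically. No label ties libraries to separate mice, and the spread behind each p-value may therefore be technical. What the allele does within Treg and what the body of a ∆Foxp3 mouse does to them cannot be told apart in either tissue.

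Library totals ran from 3958892 to 9025150 counts, so that a floor of 3 counts in a library stood for 0.332 to 0.758 CPM (counts over a library size that was adjusted by TMM factors). Foxp3 was counted at 469, 385 and 189 CPM in lung ∆Foxp3, against 1418, 1361 and 1328 CPM in lung WT, and at 159, 114 and 227 CPM in spleen ∆Foxp3, against 1026, 991 and 1096 CPM in spleen WT. Every ∆Foxp3 library was thus below every WT library, as the labels have it, although the sources used here do not give which part of the gene is missing. The summed level of 8 Treg and T cell markers was 3980 to 4940 CPM in lung ∆Foxp3, 6520 to 6810 CPM in lung WT, 3840 to 4290 CPM in spleen ∆Foxp3 and 6130 to 6830 CPM in spleen WT. Of these markers 1 rose and 5 fell in lung, and 1 rose and 7 fell in spleen; the 1 that rose was Cd4, and Il2ra, the CD25 of the sort, differed by −0.49 on the log2 scale in lung (edgeR adjusted p = 0.156) and by −1.02 in spleen (edgeR adjusted p = 0.00531). Lung ∆Foxp3 3 had the highest share of mitochondrial counts (2.44%, against 1.40% to 1.63% in the other 11), and spleen WT 1 had the lowest share of counts in the repeat-rich predicted genes (0.112%, against 0.743% to 2.94%). Lung WT 1 is set beside them for its 22981 detected genes alone, against 21038 and 22015 in the other lung WT libraries, which is no wide gap. Counts of changed genes below are given again without these 3 libraries, which were picked with the data in view and are called those that stand apart. The fit without them has 1 library fewer in each of lung ∆Foxp3, lung WT and spleen WT. Whether a call lost in that fit reflects the smaller groups or the libraries removed was not tested.

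The clearest differences between the genotypes lay in the transporters, and they had the same direction in lung and in spleen. The concentrative transporter genes Slc28a2 and Slc28a2b were lower in ∆Foxp3 Treg and the equilibrative transporter gene Slc29a1 was higher. Nt5e was lower in spleen ∆Foxp3 Treg, while its lower level in lung ∆Foxp3 did not pass the test. Entpd1, Adora2a, Adk, Ada, Pnp and Dpp4 did not pass in either tissue. In lung, 3 of the 10 genes passed an adjusted p under 0.05 (edgeR's quasi-likelihood test, adjusted over all tested genes), 1 higher and 2 lower, where 20.2% of all tested genes passed. In spleen, 4 of the 10 passed, 1 higher and 3 lower, where 26.6% of all tested genes passed. The 3 libraries of one genotype lay wholly above or below those of the other for 6 genes in lung, where 45.3% of tested genes did so, and for 5 genes in spleen, where 38.2% did so. The median log2 fold change of the 10 genes was 0.07 in lung and 0.07 in spleen, against −0.01 and −0.02 over all tested genes. With these backgrounds the counts show nothing particular to the set, and the results below are those of single genes. Without the 3 libraries that stand apart the counts were again 3 in lung and 4 in spleen.

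**Figure D1:**
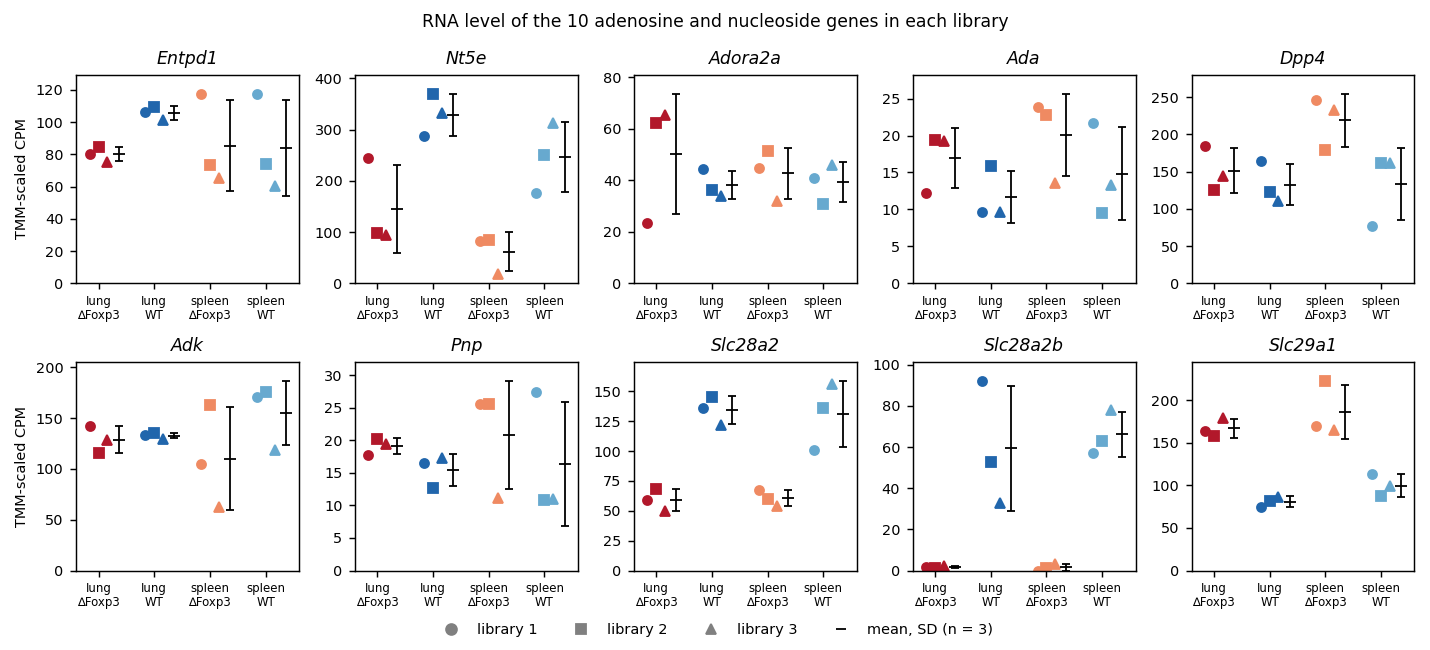
TMM-scaled CPM (vertical axes, each from 0) of the 10 genes in every library, by group. Marker shapes are library numbers, which no label ties across groups, and black bars are the mean and SD of 3 libraries. Slc28a2 and Slc28a2b were lower and Slc29a1 higher in every ∆Foxp3 library than in every WT library of the same tissue, whereas the Entpd1, Ada, Pnp and Adk levels in spleen overlapped.

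**Figure D2:**
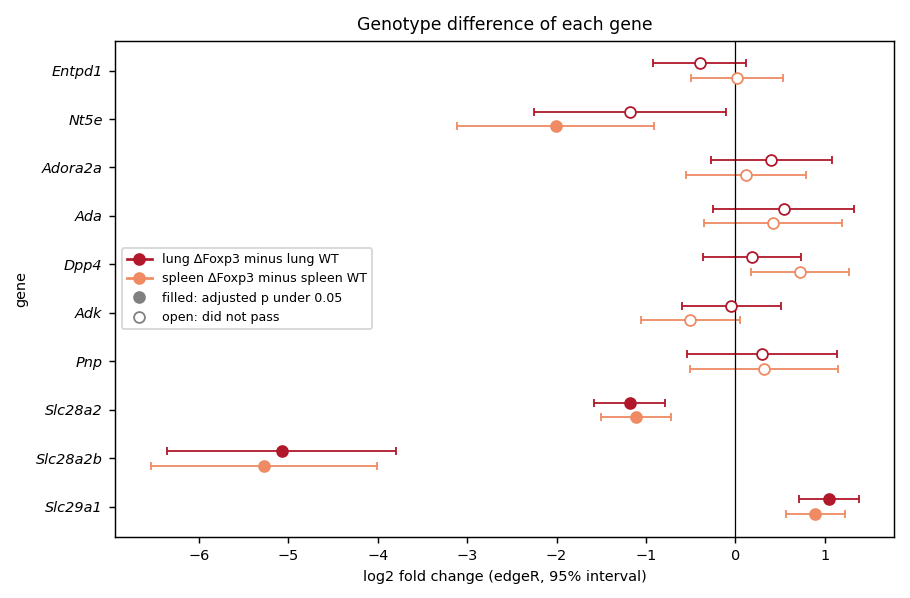
Log2 fold change of each gene, ∆Foxp3 minus WT (horizontal axis), with its 95% interval from edgeR, in lung and in spleen; filled points passed an adjusted p under 0.05. The 2 tissues' intervals overlap for every gene, and Slc28a2b lies farthest from 0, at −5.07 in lung and −5.27 in spleen.

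The first step of extracellular adenosine formation, from ATP and ADP to AMP, is the work of CD39. Entpd1 (chromosome 19, 40612366 to 40741602, mm10, plus strand) was counted at 80.3, 84.3 and 75.5 CPM in lung ∆Foxp3, against 106, 110 and 101 CPM in lung WT. All 3 ∆Foxp3 libraries were lower, yet the difference of −0.40 ± 0.24 on the log2 scale (SE; 95% interval −0.92 to 0.12; edgeR adjusted p = 0.272) did not pass. In a fit of the 6 lung libraries alone, edgeR's adjusted p was 0.0292. In spleen, Entpd1 stood at 118, 73.1 and 65.3 CPM in ∆Foxp3, against 118, 73.8 and 60.2 CPM in WT. Those groups overlapped throughout, and the difference was 0.02 ± 0.24 (95% interval −0.50 to 0.54; edgeR adjusted p = 0.966). In each spleen group library 1 held the high value. Without spleen WT 1 the difference was 0.39 (edgeR adjusted p = 0.217). CD39 is also known on myeloid cells, whose 10 markers summed to 159 to 237 CPM in lung ∆Foxp3, against 252 to 507 CPM in lung WT, and to 263 to 576 CPM in spleen ∆Foxp3, against 363 to 570 CPM in spleen WT. Of the 8 tested, Ctss, a cathepsin gene, was lower in both tissues and 1 was higher in spleen. Library 1, the highest for Entpd1 in each spleen group, was also highest there for Csf1r, Adgre1, Cd68, Ctss, C1qa, C1qb and Lyz2. C1qb stood at 95.1, 11.03 and 47.1 CPM in spleen ∆Foxp3, against 48.2, 6.61 and 5.25 CPM in spleen WT. Cd14, Itgax and Flt3 did not show this in both groups. Between the other libraries of spleen ∆Foxp3, C1qb and Entpd1 differed in opposite directions. The part of myeloid cells in the Entpd1 values was not tested.

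The second step, from AMP to adenosine, belongs to CD73. Nt5e (chromosome 9, 88327197 to 88372092, plus strand) was counted at 82.0, 85.3 and 18.1 CPM in spleen ∆Foxp3, against 176, 251 and 314 CPM in spleen WT. Every ∆Foxp3 library was below every WT library. In spleen Nt5e fell by 2.01 ± 0.51 on the log2 scale (SE; 95% interval −3.12 to −0.90), 4.03-fold lower in ∆Foxp3 (edgeR adjusted p = 0.0119). The call was lost when the filter on low counts was removed (edgeR adjusted p = 0.10). In lung, Nt5e stood at 245, 98.7 and 93.8 CPM in ∆Foxp3, against 287, 369 and 333 CPM in WT. The groups did not overlap, but lung ∆Foxp3 1 lay much nearer to the WT libraries than the others of its group. The difference of −1.18 ± 0.49 (95% interval −2.25 to −0.11) did not pass (edgeR adjusted p = 0.113). It was −1.73 without lung ∆Foxp3 1 (adjusted p = 0.0385), and the adjusted p was 0.0258 without spleen ∆Foxp3 3, both by edgeR, and 0.00171 with limma.

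Mouse B cells and endothelium are known to carry CD73 as well, and markers of both moved with genotype. The summed level of 10 B and plasma cell markers was 143 to 261 CPM in lung ∆Foxp3, against 1930 to 1970 CPM in lung WT, and 79.2 to 166 CPM in spleen ∆Foxp3, against 1120 to 1280 CPM in spleen WT. Ighm made up the bulk of this sum; it is the gene of the IgM heavy chain and was the only 1 of 4 tested B cell markers to pass, lower in both tissues. The defining B cell gene Ms4a1 had 0 counts in the 3 spleen WT libraries and at most 2.11 CPM in lung WT. The summed level of 8 endothelial markers was 117 to 122 CPM in lung ∆Foxp3, against 285 to 331 CPM in lung WT, and 92.8 to 149 CPM in spleen ∆Foxp3, against 270 to 330 CPM in spleen WT. Pecam1, which T cells can also express, made up most of it and was the only 1 of 3 tested endothelial markers to pass, lower in both tissues. The part of such cells in the Nt5e difference was not tested. The sum of 8 fibroblast and smooth muscle markers was 22.6 to 53.2 CPM in lung ∆Foxp3, against 8.61 to 11.8 CPM in lung WT, and 25.4 to 27.5 CPM in spleen ∆Foxp3, against 4.63 to 6.35 CPM in spleen WT, and 1 of its 2 tested genes, Fn1, rose in both tissues. The sum of 7 epithelial markers was 14.7 to 26.8 CPM in lung ∆Foxp3, against 38.9 to 209 CPM in lung WT, and 12.2 to 17.9 CPM in spleen ∆Foxp3, against 21.4 to 41.5 CPM in spleen WT. Of its 5 tested genes 1 rose and 3 fell in lung, and 1 rose and 1 fell in spleen. CD8, NK and γδ T cell markers summed to at most 69.9 CPM in any library, with 1 of 5 tested genes higher in lung (Klrk1) and 0 called in spleen, and granulocyte and mast cell markers summed to at most 24.6 CPM, with none tested. In these bulk libraries, fewer cells with an RNA and less of that RNA per cell cannot be told apart.

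The ratio of Nt5e to Entpd1 counts within a library does not depend on the scaling between libraries. It was 0.697, 1.17 and 0.277 in spleen ∆Foxp3, against 1.50, 3.40 and 5.22 in spleen WT, so every ∆Foxp3 library was lower. In lung it was 3.05, 1.17 and 1.24 in ∆Foxp3, against 2.71, 3.37 and 3.29 in WT, and lung ∆Foxp3 1 lay within the WT values.

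**Figure D3:**
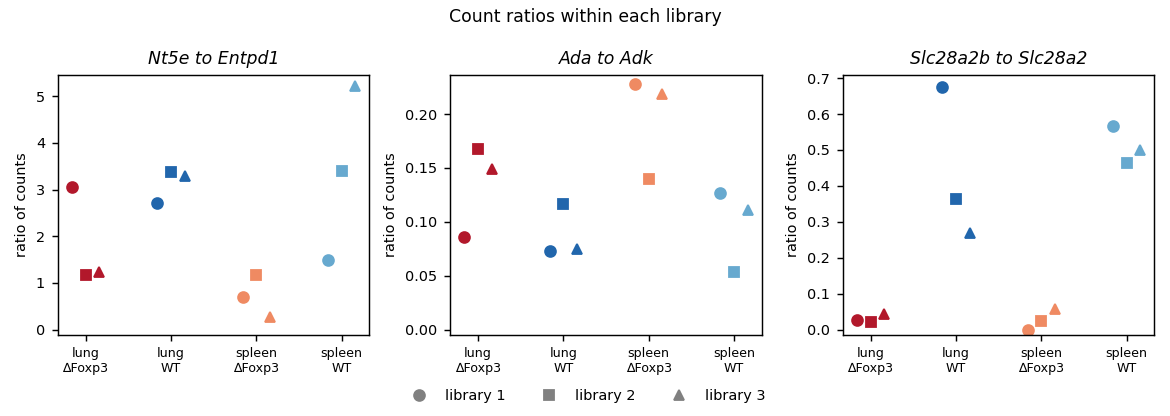
Ratios of counts within each library (vertical axes, no unit) for Nt5e to Entpd1, Ada to Adk and Slc28a2b to Slc28a2, by group, with marker shapes for library numbers. The ratio of Slc28a2b to Slc28a2 was at most 0.0585 in the ∆Foxp3 libraries and at least 0.270 in the WT libraries.

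Adora2a, the gene of the main adenosine receptor of T cells (chromosome 10, 75316877 to 75334784, plus strand), was counted at 23.5, 62.4 and 65.2 CPM in lung ∆Foxp3, against 44.4, 36.3 and 33.8 CPM in lung WT. The ∆Foxp3 libraries lay on both sides of the WT libraries, with library 1 the lowest of the 6, and the difference was 0.40 ± 0.32 (95% interval −0.28 to 1.08; edgeR adjusted p = 0.404). Without lung ∆Foxp3 1 it was 0.79 (edgeR adjusted p = 0.0448). In spleen, Adora2a stood at 44.8, 51.5 and 32.0 CPM in ∆Foxp3, against 40.9, 30.7 and 46.0 CPM in WT, with overlapping groups and a difference of 0.12 ± 0.32 (95% interval −0.55 to 0.79; edgeR adjusted p = 0.818). The other adenosine receptor genes, Adora1, Adora2b and Adora3, failed the filter on low counts, and none exceeded 1.87 CPM in any library.

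Slc28a2 encodes the concentrative nucleoside transporter CNT2, which couples the uptake of purine nucleosides and uridine to the entry of sodium. It lies on chromosome 2 at 122426477 to 122461137 (plus strand), and its near copy Slc28a2b, which the annotation of the same build names Gm14085, lies beside it at 122484941 to 122528040 (plus strand). Their coding sequences have 1980 bases each, of which 1872 (94.5%) are identical. The first 120 coding bases of each, read from GENCODE M21 transcripts and shown because reads must be assigned to one copy or the other by such bases, differ at 11 positions, which are in capitals.
Slc28a2b: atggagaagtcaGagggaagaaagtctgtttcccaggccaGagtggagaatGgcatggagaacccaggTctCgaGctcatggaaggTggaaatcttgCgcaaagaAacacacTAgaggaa
Slc28a2: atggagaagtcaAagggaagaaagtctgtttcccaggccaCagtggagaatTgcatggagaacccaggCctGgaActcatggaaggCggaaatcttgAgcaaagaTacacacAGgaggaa

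Of the stretches of 38 bases, the length of a read, in the exons of the transcripts, 41.7% of those of Slc28a2 and 35.5% of those of Slc28a2b also occur in another gene. The sources used here do not give how the authors counted reads with more than 1 match, so the split between the copies is uncertain, and their sum is given below.

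Slc28a2 was counted at 59.1, 68.4 and 50.3 CPM in lung ∆Foxp3, against 136, 146 and 122 CPM in lung WT. In spleen it stood at 67.5, 59.9 and 54.0 CPM in ∆Foxp3, against 101, 136 and 156 CPM in WT. In both tissues every ∆Foxp3 library was below every WT library. Slc28a2 fell by 1.18 ± 0.18 on the log2 scale in lung (SE; 95% interval −1.58 to −0.79; edgeR adjusted p = 0.000555). In spleen it fell by 1.12 ± 0.18 (95% interval −1.51 to −0.72; edgeR adjusted p = 0.000479). These are 2.27-fold and 2.17-fold lower levels in ∆Foxp3.

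Slc28a2b was close to the counting floor in ∆Foxp3 Treg and well above it in WT Treg. It was counted at 1.62, 1.39 and 2.23 CPM in lung ∆Foxp3 (7, 7 and 10 counts), against 92.2, 52.9 and 32.9 CPM in lung WT (428, 204 and 187 counts). In spleen it had 0, 1.44 and 3.16 CPM in ∆Foxp3 (0, 6 and 22 counts), against 57.1, 63.1 and 78.1 CPM in WT (513, 353 and 506 counts). The WT libraries of lung spread widely, and still none came near a ∆Foxp3 library. Slc28a2b fell by 5.07 ± 0.60 on the log2 scale in lung (95% interval −6.35 to −3.79; edgeR adjusted p = 8.54e-05), 33.7-fold lower in ∆Foxp3. In spleen it fell by 5.27 ± 0.59 (95% interval −6.54 to −4.01; edgeR adjusted p = 2.9e-05), 38.7-fold lower in ∆Foxp3. With so few counts in ∆Foxp3 the size of the fold depends on single libraries, and leaving out 1 library moved the spleen difference between −6.53 (without spleen ∆Foxp3 3) and −4.73 (without spleen ∆Foxp3 1).

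Within a library, Slc28a2b made up 2.66%, 1.99% and 4.26% of the counts of the pair in lung ∆Foxp3, against 40.3%, 26.6% and 21.2% in lung WT. In spleen it made up 0%, 2.34% and 5.53% in ∆Foxp3, against 36.2%, 31.6% and 33.4% in WT. The copies thus did not keep one ratio between the genotypes in either tissue. With the counts of both copies summed into 1 gene, the pair fell by 1.67 on the log2 scale in lung (edgeR adjusted p = 4.65e-05) and by 1.67 in spleen (edgeR adjusted p = 2.22e-05).

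The annotated start regions of the copies were less alike than their coding sequences, although whether the 2 annotated starts are matching positions was not tested. The 250 bases before each RefSeq start (GRCm38.p6) are shown because the copies differed in how far they fell; over 231 aligned bases, 113 (48.9%) were identical, and the longest run the 2 share, 8 bases, is in capitals.
Slc28a2b (chr2:122484691-122484940, plus strand): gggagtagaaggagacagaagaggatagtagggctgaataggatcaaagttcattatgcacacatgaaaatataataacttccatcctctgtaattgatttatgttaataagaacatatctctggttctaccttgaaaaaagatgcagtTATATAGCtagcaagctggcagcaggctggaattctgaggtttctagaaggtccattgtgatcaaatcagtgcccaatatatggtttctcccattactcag
Slc28a2 (chr2:122426185-122426434, plus strand): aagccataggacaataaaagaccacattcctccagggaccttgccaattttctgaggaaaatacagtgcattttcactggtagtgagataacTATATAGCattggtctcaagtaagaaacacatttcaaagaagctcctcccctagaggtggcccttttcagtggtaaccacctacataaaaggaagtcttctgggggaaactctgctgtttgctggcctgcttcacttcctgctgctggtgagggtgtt

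Both windows are low in G and C, at 38.4% for Slc28a2b and 45.2% for Slc28a2, against a median of 52.4% over 32851 mouse promoters, and neither holds a CpG, against a median of 6. A forkhead core, TGTTTAC, the kind of motif that Foxp3 and its relatives bind, was searched on both strands of the same window. It occurred in 0 of the 9 promoters of the 10 genes that had an entry (Adora2a had none) and in 3.17% of all promoters. The GC box GGGCGG occurred in those of Nt5e, Ada, Adk and Pnp and in 32.7% of all promoters, the ETS core CCGGAAG in that of Ada and in 6.91% of all, and the TATA box TATAAA in that of Dpp4 and in 12.4% of all. The searches cover only these letters in these windows.

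Slc29a1 encodes the equilibrative transporter ENT1, which lets nucleosides cross the membrane down their gradient in either direction, and it moved the opposite way to the concentrative pair. The gene (chromosome 17, 45585200 to 45599606, minus strand) was counted at 164, 158 and 179 CPM in lung ∆Foxp3, against 74.5, 81.1 and 86.9 CPM in lung WT. In spleen it stood at 170, 223 and 166 CPM in ∆Foxp3, against 113, 87.0 and 99.5 CPM in WT. Every ∆Foxp3 library of a tissue was above every WT library. Slc29a1 rose by 1.05 ± 0.16 on the log2 scale in lung (SE; 95% interval 0.71 to 1.38; edgeR adjusted p = 0.000431), 2.07-fold higher in ∆Foxp3. In spleen it rose by 0.90 ± 0.16 (95% interval 0.56 to 1.23; edgeR adjusted p = 0.000738), 1.86-fold higher in ∆Foxp3. ENT1 is also abundant on red cells. The 9 erythroid and platelet markers summed to 1.19 to 408 CPM in lung ∆Foxp3, against 1980 to 4900 CPM in lung WT. In spleen they summed to 13.2 to 400 CPM in ∆Foxp3, against 9.10 to 16.6 CPM in WT. Of 6 tested, 0 rose and 3 fell in lung, and 1 rose and 0 fell in spleen. The part of such cells in the Slc29a1 difference was not tested. An antisense gene, Gm17080, covers 6.86% of the exon bases of Slc29a1, and the sources used here do not give whether counting used the strand.

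Adk encodes adenosine kinase, which turns adenosine that has entered the cell back into AMP. The gene (chromosome 14, 21052574 to 21448569, plus strand) was counted at 142, 116 and 129 CPM in lung ∆Foxp3, against 133, 136 and 130 CPM in lung WT. The groups overlapped, with a difference of −0.05 ± 0.26 (95% interval −0.60 to 0.51; edgeR adjusted p = 0.929). In spleen it stood at 105, 163 and 62.3 CPM in ∆Foxp3, against 171, 176 and 119.1 CPM in WT. The difference of −0.50 ± 0.26 (95% interval −1.06 to 0.05) did not pass (edgeR adjusted p = 0.172) and rested on the spread within spleen ∆Foxp3, being −0.90 (edgeR adjusted p = 0.0105) without library 2 and −0.21 without library 3 of that group.

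Ada encodes adenosine deaminase, whose loss causes severe immunodeficiency in humans. The gene (chromosome 2, 163726584 to 163750239, minus strand) was counted at 12.2, 19.4 and 19.2 CPM in lung ∆Foxp3, against 9.69, 15.8 and 9.67 CPM in lung WT, and the groups overlapped. In spleen it stood at 23.8, 22.8 and 13.6 CPM in ∆Foxp3, against 21.7, 9.47 and 13.3 CPM in WT, again with overlap. The differences were 0.54 ± 0.37 in lung (95% interval −0.25 to 1.33; edgeR adjusted p = 0.334) and 0.42 ± 0.36 in spleen (95% interval −0.35 to 1.19; edgeR adjusted p = 0.424), and neither passed. Without spleen WT 1, the highest WT library, the spleen difference was 0.85 (edgeR adjusted p = 0.102). The ratio of Ada to Adk counts, the deaminase against the kinase, was 0.0862, 0.168 and 0.149 in lung ∆Foxp3, against 0.0727, 0.117 and 0.0744 in lung WT. It was 0.228, 0.140 and 0.219 in spleen ∆Foxp3, against 0.127, 0.0538 and 0.111 in spleen WT, where every ∆Foxp3 library was higher.

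Dpp4 encodes CD26, a surface peptidase of T cells that in humans also anchors adenosine deaminase at the membrane. The gene (chromosome 2, 62330073 to 62412231, minus strand) was counted at 247, 179 and 232 CPM in spleen ∆Foxp3, against 77.2, 161 and 162 CPM in spleen WT. Every ∆Foxp3 library was higher, but the difference of 0.72 ± 0.26 (95% interval 0.17 to 1.27) just missed the threshold of the test (edgeR adjusted p = 0.0508). Its adjusted p ran from 0.00164 to 0.116 over the alternatives other than the test against a fold of 1.5 (0.423), and was under 0.05 in 11 of these 25, among them DESeq2 (0.0223), limma (0.0308) and those without spleen ∆Foxp3 2, spleen WT 2 or 3, lung ∆Foxp3 1 or 2, or lung WT 1 or 3 (0.0372 to 0.0473). Spleen WT 1, one of the libraries that stand apart, held the low WT value, and without it the difference was 0.48 (edgeR adjusted p = 0.0991). In lung, Dpp4 stood at 185, 126 and 144 CPM in ∆Foxp3, against 164, 123 and 111 CPM in WT, with overlapping groups and a difference of 0.19 ± 0.26 (95% interval −0.36 to 0.74; edgeR adjusted p = 0.654).

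Pnp encodes purine nucleoside phosphorylase, which splits inosine and guanosine into base and sugar phosphate. The gene (chromosome 14, 50931082 to 50965237, plus strand) was counted at 17.8, 20.2 and 19.4 CPM in lung ∆Foxp3, against 16.6, 12.7 and 17.2 CPM in lung WT. All 3 ∆Foxp3 libraries were higher, by a margin smaller than the error of the fit (0.30 ± 0.39, 95% interval −0.54 to 1.14; edgeR adjusted p = 0.640). In spleen it stood at 25.6, 25.7 and 11.2 CPM in ∆Foxp3, against 27.4, 10.9 and 10.96 CPM in WT, and the difference was 0.32 ± 0.39 (95% interval −0.50 to 1.15; edgeR adjusted p = 0.586). There the groups overlapped, and limma gave 0.91 (adjusted p = 0.0424), a difference more than 1.5 times as large. Overlapping genes cover 27.0% of its exon bases, and its near copy Pnp2 had at most 3 counts in any library, so the Pnp level is the less certain.

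None of the 10 genes passed between lung and spleen. In WT, 0 of 10 passed by edgeR (0 at an unadjusted p under 0.05), where 4.13% of all tested genes did (3.10% higher and 1.03% lower in lung). The differences, lung WT minus spleen WT, ran from −0.35 for Ada (adjusted p = 0.650) to 0.42 for Nt5e (adjusted p = 0.696). In ∆Foxp3, 0 of 10 passed by edgeR, where 0.722% of all tested genes did (0.549% higher and 0.173% lower in lung), and 1 had an unadjusted p under 0.05. That was Nt5e, at 245, 98.7 and 93.8 CPM in lung ∆Foxp3, against 82.0, 85.3 and 18.1 CPM in spleen ∆Foxp3. Each lung library was above each spleen library, and the difference was 1.25 ± 0.50 (95% interval 0.16 to 2.34; edgeR adjusted p = 0.460). DESeq2 and limma also called 0 of the 10 in both comparisons.

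Whether the genotype difference itself differed between the tissues was tested by an interaction term, lung minus spleen. Tissue, handling and the labelled spleen allele cannot be told apart in this term. It passed for 0 of 10 genes (0 at an unadjusted p under 0.05), where 0.925% of all tested genes passed by edgeR (0.143% positive and 0.782% negative), and DESeq2 and limma called 0 as well. For the genes that passed within a tissue the interaction was −0.07 ± 0.26 for Slc28a2 (95% interval −0.62 to 0.48) and 0.15 ± 0.22 for Slc29a1 (95% interval −0.32 to 0.62). It was 0.20 ± 0.86 for Slc28a2b (95% interval −1.64 to 2.05) and 0.83 ± 0.69 for Nt5e (95% interval −0.67 to 2.34), intervals wide enough to hold large differences in either direction for Slc28a2b. The Nt5e result in spleen and its absence in lung are therefore not shown to differ (edgeR adjusted p = 0.826 for the interaction).

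Levels of different genes were compared per kilobase of exon, on the scale of CPM per kb. In lung ∆Foxp3 Slc29a1 led at 41.7 ± 2.7 CPM per kb (SD, n = 3), followed by Dpp4 at 23.9 and Nt5e at 16.9, and Slc28a2b was last at 0.349. In lung WT Nt5e led at 38.3, followed by Slc28a2 at 32.0 and Dpp4 at 21.0, and Pnp was last at 3.90. In spleen ∆Foxp3 Slc29a1 led at 46.5, followed by Dpp4 at 34.7 and Entpd1 at 15.3, and Slc28a2b was last at 0.307. In spleen WT Slc28a2 led at 31.1, followed by Nt5e at 28.7 and Slc29a1 at 24.9, and Pnp was last at 4.13. Slc29a1 was thus the first of the 10 in both ∆Foxp3 groups and in neither WT group. The lowest library of Slc29a1 exceeded the highest of the gene next in rank in both ∆Foxp3 groups, whereas in spleen WT no gene was clear of its neighbour in rank.

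The genes most like each of the 10 across the 12 libraries were sought by Pearson's r of log2 CPM among 8510 genes. Each of these averaged 10 CPM or more. Symbols of the Gm-number, Rik and pseudogene kinds and T cell receptor and immunoglobulin genes, Ighm among them, were left out. These r are descriptions, since libraries of a group share genotype and tissue. For Slc28a2 they were Atf7ip (0.982), L3mbtl3 and Arid1a. For Slc28a2b they were Gpr146 (0.985), Sertad2 and Tsc22d1. For Slc29a1 they were Nelfe (0.979), Arl1 and Mphosph6, and for Nt5e they were Apol9b (0.961), Tnfrsf1b and Zscan20. The nearest genes of the others had lower r, 0.866 for Entpd1 with Cd24a, 0.861 for Adora2a with Prf1, 0.919 for Ada with Ccl5, 0.894 for Adk with Fkbp3, 0.922 for Pnp with Cfap298 and 0.923 for Dpp4 with Exoc6.

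Around the 10 genes, 7 lists of other purine and nucleoside genes were read from the same fit, of which 84 genes were tested. The lists were written with earlier results of these data known. A share of passing genes above that of all tested genes is therefore a description and no independent result, here and for each list below. In lung, 33 of the 84 passed, 18 higher and 15 lower, against 20.2% of all tested genes. In spleen, 34 passed, 22 higher and 12 lower, against 26.6%. The median log2 difference of the 84 was 0.10 in lung and 0.31 in spleen. The lung count was 19 without lung ∆Foxp3 2, 17 without lung ∆Foxp3 3, 21 without lung WT 1 and 20 without lung WT 2. These were 22.4%, 19.8%, 24.4% and 23.3% of the pathway genes tested. In the same fits 11.6%, 10.3%, 12.1% and 11% of all tested genes passed. The spleen count was 22 without spleen ∆Foxp3 2 and 20 with only the spleen groups in the fit, where 19.1% and 18.3% of all tested genes passed. Without the 3 libraries that stand apart, 14 of 86 tested pathway genes passed in lung (16.3%), 8 higher and 6 lower, against 9.66% of all genes tested in that fit, and 29 passed in spleen (33.7%), against 24.5%.

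**Figure D4:**
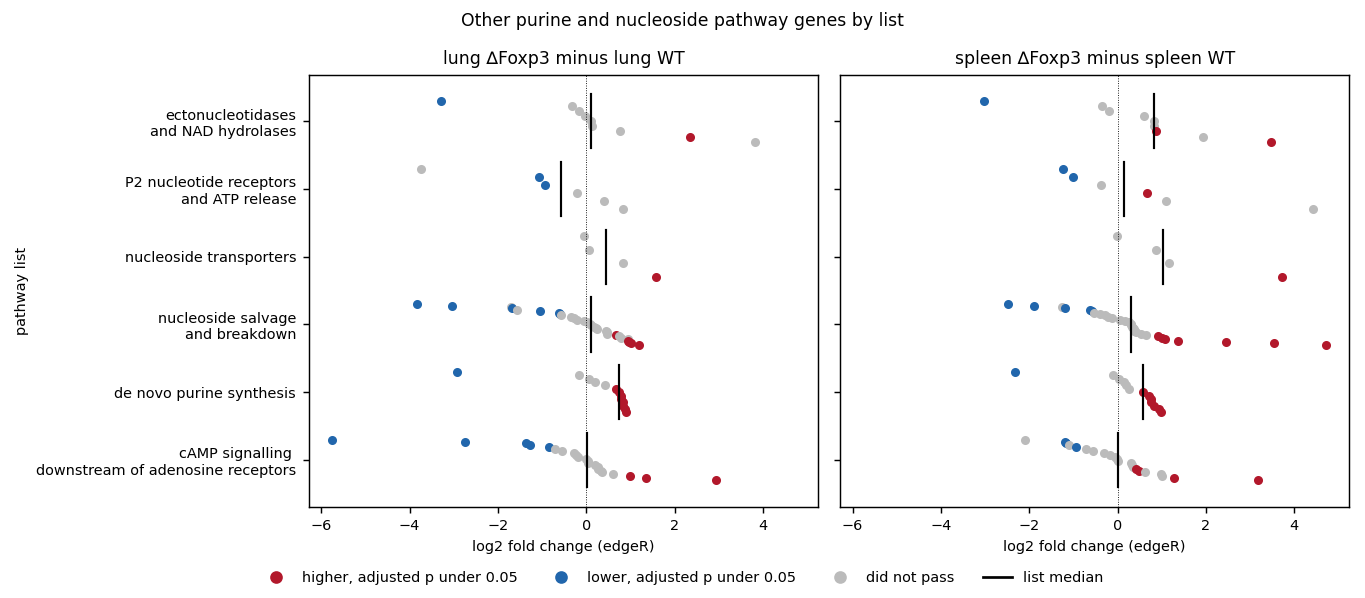
Log2 fold change (horizontal axes, ∆Foxp3 minus WT, edgeR) of every tested gene of 6 pathway lists in lung and in spleen; colours mark genes that passed an adjusted p under 0.05, and black bars are list medians. Of the 13 de novo purine synthesis genes, 8 were higher and 1 lower in lung, and 7 higher and 1 lower in spleen; without the 3 libraries that stand apart 1 passed in lung and 4 in spleen.

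Among 9 tested ectonucleotidases and NAD-consuming surface enzymes, 1 rose and 1 fell in lung (22.2%, against 20.2% of all tested genes), and 2 rose and 1 fell in spleen (33.3%, against 26.6%). Without the 3 libraries that stand apart 1 passed in lung, lower, and 3 in spleen. The gene that fell in both was Art2b, which encodes the ADP-ribosyltransferase that uses extracellular NAD to modify surface proteins of mouse T cells, among them the ATP receptor P2X7. It averaged 15.4 ± 6.71 CPM in lung ∆Foxp3, against 149 ± 21.1 CPM in lung WT, and 26.5 ± 18.6 CPM in spleen ∆Foxp3, against 210 ± 27.9 CPM in spleen WT (SD, n = 3 each). It fell by 3.28 ± 0.55 on the log2 scale in lung (edgeR adjusted p = 0.00155) and by 3.01 ± 0.53 in spleen (edgeR adjusted p = 0.00134). Entpd5, an intracellular nucleoside diphosphatase of the endoplasmic reticulum, rose by 0.88 ± 0.22 in spleen (edgeR adjusted p = 0.00871).

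Of 6 tested genes for receptors of extracellular nucleotides and ATP release, 2 fell in lung (33.3%, against 20.2% of all tested genes), and 2 fell and 1 rose in spleen (3 of 6, against 26.6%). Of 7 tested without the 3 libraries that stand apart, 1 fell in lung and 2 fell in spleen. P2rx4, an ATP-gated channel, averaged 33.9 ± 3.87 CPM in lung ∆Foxp3, against 65.3 ± 6.78 CPM in lung WT, and 33.9 ± 7.34 CPM in spleen ∆Foxp3, against 68.3 ± 6.46 CPM in spleen WT. It fell by 0.94 ± 0.20 in lung (edgeR adjusted p = 0.00383) and by 1.01 ± 0.19 in spleen (edgeR adjusted p = 0.00152). P2ry10, a lymphocyte receptor of the P2Y family by sequence that is known for lysophospholipid ligands, fell by 1.07 ± 0.21 in lung (edgeR adjusted p = 0.00319) and by 1.23 ± 0.22 in spleen (edgeR adjusted p = 0.000785). Its lung call was lost without the 3 libraries that stand apart (adjusted p = 0.0783). The hemichannel gene Panx1, which lets ATP out of cells, rose by 0.68 ± 0.24 in spleen (edgeR adjusted p = 0.0466), a call that held in 12 of 25 alternatives and not without any 1 of spleen ∆Foxp3 1, 2 or 3, spleen WT 1 or 2, or lung WT 2 (adjusted p up to 0.127).

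Of the other nucleoside transporter genes, 4 of 6 were tested and 1 passed, in both tissues. Slc43a3 encodes a transporter of purine nucleobases. It was counted at 92.8, 81.5 and 84.9 CPM in lung ∆Foxp3, against 25.4, 39.1 and 22.5 CPM in lung WT, and at 88.3, 116 and 51.4 CPM in spleen ∆Foxp3, against 4.46, 8.93 and 6.17 CPM in spleen WT. The ∆Foxp3 libraries were higher throughout. Slc43a3 rose by 1.58 ± 0.30 in lung (edgeR adjusted p = 0.00229) and by 3.72 ± 0.34 in spleen (edgeR adjusted p = 4.88e-06).

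Of 30 tested genes of nucleoside salvage and breakdown, 5 rose and 6 fell in lung (36.7%, against 20.2% of all tested genes), and 7 rose and 5 fell in spleen (40.0%, against 26.6%). In the fit without the 3 libraries that stand apart 5 rose and 2 fell in lung, and 6 rose and 5 fell in spleen. Samhd1, a phosphohydrolase that degrades deoxynucleotides, averaged 387 ± 113 CPM in lung ∆Foxp3, against 1246 ± 150.0 CPM in lung WT, and 334 ± 47.9 CPM in spleen ∆Foxp3, against 1233 ± 118 CPM in spleen WT. It fell by 1.69 ± 0.20 in lung (edgeR adjusted p = 5.75e-05) and by 1.88 ± 0.20 in spleen (edgeR adjusted p = 1.32e-05). Ahcy, whose product releases adenosine from S-adenosylhomocysteine, rose by 0.98 ± 0.18 in lung (edgeR adjusted p = 0.00192) and by 1.38 ± 0.18 in spleen (edgeR adjusted p = 8.38e-05). Aprt, which salvages adenine, rose by 1.01 ± 0.19 in lung (edgeR adjusted p = 0.00217) and by 0.92 in spleen (edgeR adjusted p = 0.00257). Tk1, the thymidine kinase of dividing cells, rose by 2.46 ± 0.24 in spleen (edgeR adjusted p = 7.69e-06), to 169 ± 53.9 CPM in ∆Foxp3, against 30.5 ± 5.17 CPM in WT. In lung Tk1 averaged 152 ± 23.3 CPM in ∆Foxp3, against 66.2 ± 9.29 CPM in WT.

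All 13 genes of de novo purine synthesis were tested; 8 rose and 1 fell in lung, and 7 rose and 1 fell in spleen, where 9.74% of all tested genes rose in lung and 14.1% in spleen. Without the 3 libraries that stand apart only 1 of the 13 passed in lung and 4 in spleen, all higher, which is 7.69% and 30.8%. In that fit 666 of all 13671 tested genes rose in lung and 1922 in spleen, and 9.66% and 24.5% passed in either direction. With all 12 libraries the median log2 difference of the 13 was 0.75 in lung and 0.58 in spleen. The gene that fell in both, Adssl1, the muscle form of adenylosuccinate synthase, fell by 2.92 ± 0.72 in lung (edgeR adjusted p = 0.0111) and by 2.33 ± 0.68 in spleen (edgeR adjusted p = 0.0198), and is named after its values were seen; it passed in neither tissue without the 3 libraries that stand apart. The other genes that passed rose by similar amounts. In spleen, Paics, a bifunctional enzyme of the middle of the pathway, rose by 0.94 ± 0.20 (edgeR adjusted p = 0.00321), Pfas, the synthase of formylglycinamidine ribotide, by 0.99 ± 0.28 (edgeR adjusted p = 0.0162) and the GMP synthase gene Gmps by 0.76 ± 0.20 (edgeR adjusted p = 0.0121). In lung, Atic, which makes IMP, rose by 0.84 ± 0.19 (edgeR adjusted p = 0.00581), Impdh2, the first enzyme toward GMP, by 0.90 ± 0.23 (edgeR adjusted p = 0.0119) and Gmps by 0.78 ± 0.20 (edgeR adjusted p = 0.0146). Paics and Pfas also passed in lung, at 0.68 and 0.83 (edgeR adjusted p = 0.0277 and 0.0488). Atic and Impdh2 also passed in spleen, at 0.58 and 0.76 (edgeR adjusted p = 0.0288 and 0.0207). Those further calls held in 20, 13, 19 and 20 of 25 alternatives. The lung calls of Atic and Impdh2 were lost without the 3 libraries that stand apart (adjusted p = 0.0609 and 0.0865), that of Gmps without lung ∆Foxp3 2 (0.0505), and the spleen calls of Pfas and Gmps without spleen ∆Foxp3 2 or, for Pfas, spleen WT 3 and, for Gmps, spleen WT 2 (up to 0.0888 and 0.062).

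Of 22 tested genes of cyclic AMP signalling, through which the receptor of Adora2a acts, 3 rose and 5 fell in lung (36.4%, against 20.2% of all tested genes), and 4 rose and 3 fell in spleen (31.8%, against 26.6%). These counts were 1 higher and 2 lower in lung, and 4 higher and 4 lower in spleen, of 23 tested without the 3 libraries that stand apart. Pde3b and Pde4b both encode phosphodiesterases that break down cyclic AMP, and they differed in direction. Pde3b averaged 23.1 ± 1.24 CPM in lung ∆Foxp3, against 2.97 ± 0.670 CPM in lung WT, and 17.7 ± 11.4 CPM in spleen ∆Foxp3, against 1.98 ± 1.61 CPM in spleen WT. It rose by 2.94 ± 0.56 in lung (edgeR adjusted p = 0.00223) and by 3.18 ± 0.57 in spleen (edgeR adjusted p = 0.00087). Pde4b averaged 106 ± 13.3 CPM in lung ∆Foxp3, against 191 ± 30.9 CPM in lung WT, and 57.8 ± 6.35 CPM in spleen ∆Foxp3, against 111 ± 13.6 CPM in spleen WT. It fell by 0.85 ± 0.17 in lung (edgeR adjusted p = 0.00272) and by 0.94 ± 0.17 in spleen (edgeR adjusted p = 0.000843). Crtc3, a coactivator of CREB, fell by 1.35 ± 0.26 in lung (edgeR adjusted p = 0.00265) and by 1.17 ± 0.26 in spleen (edgeR adjusted p = 0.00433).

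Between the tissues, 7 of the 84 genes were higher in lung WT than in spleen WT and 0 lower, and 2 were higher in lung ∆Foxp3 than in spleen ∆Foxp3 and 0 lower. Over all tested genes 3.10% were higher in lung WT and 0.549% in lung ∆Foxp3. The WT count was 4 without spleen WT 1, lung WT 2 or lung WT 3 and 3 without lung WT 1. It was 2 without spleen WT 2, 1 without spleen WT 3, and 3 of 86 without the 3 libraries that stand apart. In these fits, in the same order, 3.12%, 2.31%, 2.04%, 3.67%, 2.34%, 3.37% and 2.91% of all tested genes passed in either direction. The ∆Foxp3 count was 1 without spleen ∆Foxp3 1 or 2, without lung ∆Foxp3 1 or 3, and without the 3 that stand apart. There, in the same order, 0.298%, 0.925%, 0.417%, 0.305% and 0.644% of all tested genes passed in either direction. The 2 genes higher in lung ∆Foxp3 were Crem, a cyclic AMP responsive factor, and Pde4b, both named after their values were seen. Crem averaged 69.5 ± 4.72 CPM in lung ∆Foxp3, against 20.8 ± 5.21 CPM in spleen ∆Foxp3, a difference of 1.75 ± 0.27 (edgeR adjusted p = 0.00694). It was also higher in lung WT (81.3 ± 28.1 CPM) than in spleen WT (34.3 ± 8.37 CPM), by 1.25 (edgeR adjusted p = 0.0147), a call lost without spleen WT 3 or lung WT 1 (adjusted p up to 0.152 with the 3 libraries that stand apart left out). The Pde4b difference in ∆Foxp3 was 0.87 ± 0.17 (edgeR adjusted p = 0.0279) and held in 20 of 26 alternatives, not without library 1 or 2 of spleen ∆Foxp3 or library 1 or 3 of lung ∆Foxp3 (adjusted p up to 0.148).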

How the data were processed

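RNA of sorted Treg was measured in 12 libraries, 3 per group; groups and replicate numbers came from the labels. Per the submitters' processing notes, tools named are featureCounts, Subread 2.0.0 and STAR 2.7.3a, with the build mm10; the sources used here do not give the gene annotation, strand or other settings. The table the authors deposited holds raw counts, whole numbers for 55011 gene symbols, and was used unchanged. Paired reads had 38 nt and no molecular identifiers, so floors reflect counting error alone.

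The main test was edgeR's quasi-likelihood test (edgeR 4.0.16 under R 4.3.3; robust dispersion, TMM factors, default filter by group, 13295 genes), in 1 fit over the 12 libraries with group as the only term. Two-sided p-values were adjusted by Benjamini-Hochberg over all tested genes, with a threshold of 0.05. CPM are counts over TMM-scaled library sizes; log2 fold changes carry the standard error and 95% interval of the fit. The 10 genes, the 7 pathway lists and the 9 marker lists were chosen with earlier results of these data known. Named pathway genes were, per list and genotype contrast, up to 3 that passed with the smallest adjusted p among those averaging at least 10 CPM. Coordinates, exon lengths and coding sequences came from GENCODE M21 (GRCm38) and promoters from RefSeq (GRCm38.p6); all 10 genes matched, Slc28a2b through a synonym.

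Alternatives were other scaling factors (RLE, upper quartile, library totals), other low-count filters, DESeq2 1.42.0, limma 3.58.1 voom with quality weights, a test against a fold of 1.5, dispersion without the robust option, only the groups compared, the replicate number as a block, thinning to the smallest total, near copies summed, leaving out each library and, added after seeing the data, leaving out 3 libraries that stand apart. Numbers of alternatives in which a single result held or passed leave out the test against a fold of 1.5. The fit was tested on simulated data.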

Additional observations from a re-analysis of the deposited data

Results flagged for a closer look

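Of the 84 pathway genes tested, 2 had a genotype difference that itself differed between lung and spleen by the interaction term of edgeR. Over all tested genes 0.925% did. Both genes were named after their values were seen, and tissue, handling and the labelled spleen allele cannot be told apart in this term. For Slc43a3, the purine nucleobase transporter gene, the genotype difference in lung minus that in spleen was −2.14 on the log2 scale (SE 0.44; adjusted p = 0.0332). The ∆Foxp3 means were 86.4 ± 5.79 CPM in lung and 85.1 ± 32.2 CPM in spleen, and the WT means were 29.0 ± 8.88 CPM in lung and 6.52 ± 2.26 CPM in spleen (SD, n = 3 each). The result passed in 16 of 25 alternatives; it did not pass when 1 library was left out, other than spleen ∆Foxp3 3, spleen WT 2, lung WT 1 or lung WT 3 (adjusted p up to 0.125). For Gda, the gene of guanine deaminase, the interaction was −7.37 (SE 1.62; adjusted p = 0.0465). Gda was counted at 0, 0.397 and 0.670 CPM in lung ∆Foxp3, against 12.3, 2.85 and 1.06 CPM in lung WT, and at 1.75, 1.68 and 2.58 CPM in spleen ∆Foxp3, against 0, 0.357 and 0.154 CPM in spleen WT. Several of these levels are at or under the counting floor, 1 lung WT library holds the highest value, and the result passed in 7 of 24 alternatives and in none that left out a library (adjusted p up to 0.181).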

How the results depend on the processing

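Slc28a2, Slc28a2b and Slc29a1 passed in both tissues under every alternative except the test against a fold of 1.5 for Slc29a1 in spleen (adjusted p = 0.0624), and no result for the 10 genes that passed a test reversed. Over the 10 genes and 5 contrasts, 1294 values kept their side of the threshold, 18 passed where the reported one did not, and 2 no longer passed. The members that passed numbered 4 to 6 in spleen and 3 to 5 in lung when 1 library was left out, with 5 in lung without lung ∆Foxp3 1, where Nt5e and Adora2a passed. No label says whether same-numbered libraries pair. Such libraries correlated at −0.0766 to 0.0871 in their deviations over 18 pairs, against a median of 0.000524 for pairs of unlike number. Of the 12 libraries, 7 correlated best with their own number, so pairing is neither shown nor excluded. With the replicate number as a block, 4 of the 10 passed in spleen and 3 in lung, and 1 pathway gene passed the interaction, also with the block nested in genotype. Of the pathway genes, 34 passed in spleen, 33 in lung, 7 between lung WT and spleen WT, 2 between lung ∆Foxp3 and spleen ∆Foxp3, and 2 in the interaction. Against a fold of 1.5 these were 14, 8, 1, 1 and 0. With only the groups compared they were 20 in spleen and 1 between the ∆Foxp3 groups, and without the 3 libraries that stand apart 14 in lung, 3 between the WT groups, 1 between the ∆Foxp3 groups and 0 in the interaction. With no low-count filter 4 passed between the ∆Foxp3 groups and 5 in the interaction, where 10 CPM in 3 libraries gave 1, DESeq2 gave 4 and thinning gave 1. Leaving out 1 library gave 22 to 35 in spleen, 17 to 37 in lung, 1 to 8 between the WT groups, 1 to 2 between the ∆Foxp3 groups and 0 to 2 in the interaction. Of all tested genes, 19.1% to 26.1%, 10.3% to 24.6%, 2.04% to 5.06%, 0.298% to 1.11% and 0.255% to 1.3% passed in those fits. Over all tested genes, 3540 passed in spleen (1648 against a fold of 1.5, 4115 with limma), 2686 in lung (932 and 4627), 549 between the WT groups (235 and 1064), 96 between the ∆Foxp3 groups (38 against a fold of 1.5, 292 with no filter) and 123 in the interaction (36 without lung ∆Foxp3 1, 363 with no filter). The cause of these moves was not tested. The 3 libraries per group and 1000 cells per library limit the precision, most of all for Slc28a2b in ∆Foxp3, Ada and Pnp.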
